A study of Mus musculus with 5 samples.

Results

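Absorptive colonocytes are the cells of the large intestinal lining that take up salt, water and short-chain fatty acids. They were picked from the single-cell RNA library of mouse colon by their transcripts. A cell barcode was taken as a colonocyte when it had at least 300 genes detected, at most 20% mitochondrial UMIs (unique molecular identifiers, each 1 captured transcript), at least 5 UMIs of the epithelial genes Epcam, Krt8 and Krt18 together, and at least 1% of its UMIs in Car1, Slc26a3, Aqp8 and Cyp2c55. It also had to hold under 2% of its UMIs in the goblet genes Muc2, Agr2, Spink4, Zg16 and Tff3, at most 2 UMIs of the division genes Mki67 and Top2a, and at most 1 UMI of the leukocyte gene Ptprc. The rule was met by 301 barcodes. They made up 13.7% of the 2199 colonic barcodes within the first pair of limits (Clopper-Pearson 95% interval 12.3% to 15.2%) and 27.2% of the 1105 epithelial ones (24.6% to 30.0%), out of 12255 kept and 16535 deposited barcodes in the whole series.

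The study profiled the duodenum, jejunum, ileum, colon and rectum of the mouse intestine, with 1 library per segment, from cells that excluded propidium iodide, a dye of dead cells, in a sort. The labels name epithelial, mesenchymal and immune cells as the cell types, and name no genotype or treatment. Strain, age and number of animals are not given in the sources used here. Each class of cells below therefore comes from 1 library, so values carry only counting error, no test between segments or classes was possible, and a difference between segments cannot be told apart from a difference between libraries.

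Colonocytes were set beside 287 dividing epithelial cells of the colon (same limits, but at least 3 UMIs of Mki67 and Top2a), 204 colonic goblet cells (at least 5% of UMIs in the goblet genes), 13 cells of the rectum that met the colonocyte rule, and 402 duodenal, 547 jejunal and 378 ileal enterocytes (at least 1% of UMIs in Apoa1, Apoa4, Sis and Anpep). None of the 3 small intestinal libraries held a barcode that met the colonocyte rule. That is 0 of 3311 kept barcodes in the duodenum, 0 of 1872 in the jejunum and 0 of 2522 in the ileum, which allow shares of up to 0.0906%, 0.160% and 0.119%, each taken as 3 counts of the total. Levels are CPM, the UMIs of a gene per 1000000 UMIs summed over a class. The colonocytes held 9719620 UMIs in all, with a median of 31998 UMIs and 4885 genes per cell, whereas the 13 rectal cells held 154907 UMIs, so that 3 counts there already amount to 19.4 CPM. The libraries held between 41953568 and 65546664 UMIs, 53738965 of them in the colon, and no colonocyte barcode was shared with another library.

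Colonocytes line the upper crypt and the surface of the colon. They exchange luminal sodium and chloride for protons and bicarbonate, let water follow through aquaporins, and burn butyrate, a fatty acid made by gut bacteria, in their mitochondria. As cells move from the crypt base to the surface they stop dividing, give up chloride secretion and take on absorption, until they are shed into the lumen.

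The genes that picked the cells are Car1, a cytosolic carbonic anhydrase that supplies protons and bicarbonate, Slc26a3, the apical chloride and bicarbonate exchanger, Aqp8, a water channel, and Cyp2c55, a cytochrome P450 of the colon. Promoters of 300 bases, 250 before and 50 after a listed start of transcription, are shown because these genes define the cells. They are given for the 3 of these 4 genes found in RefSeq's table for GRCm38.p6, all on the plus strand. They lie at chr12:31437969-31438268 (Slc26a3), chr7:123462044-123462343 (Aqp8) and chr19:39006769-39007068 (Cyp2c55). The Slc26a3 gene is also listed with a start at 31433142, before its window. Which start the counted transcripts used was not tested. Capitals mark matches, on either strand, to the TATA box TATAAA or to the CDX-type motif TTTATNG.
Slc26a3: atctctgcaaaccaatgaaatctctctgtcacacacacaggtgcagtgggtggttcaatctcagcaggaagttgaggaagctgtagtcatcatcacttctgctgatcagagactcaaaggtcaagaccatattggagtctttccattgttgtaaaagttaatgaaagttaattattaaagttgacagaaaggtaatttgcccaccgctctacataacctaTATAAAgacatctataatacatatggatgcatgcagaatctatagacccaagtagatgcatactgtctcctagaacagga
Aqp8: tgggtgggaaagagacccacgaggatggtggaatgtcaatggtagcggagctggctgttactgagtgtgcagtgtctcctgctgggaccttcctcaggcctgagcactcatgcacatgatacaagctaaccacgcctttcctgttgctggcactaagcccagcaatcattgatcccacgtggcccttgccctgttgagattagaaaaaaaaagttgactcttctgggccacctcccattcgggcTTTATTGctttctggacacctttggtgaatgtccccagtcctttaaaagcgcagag
Cyp2c55: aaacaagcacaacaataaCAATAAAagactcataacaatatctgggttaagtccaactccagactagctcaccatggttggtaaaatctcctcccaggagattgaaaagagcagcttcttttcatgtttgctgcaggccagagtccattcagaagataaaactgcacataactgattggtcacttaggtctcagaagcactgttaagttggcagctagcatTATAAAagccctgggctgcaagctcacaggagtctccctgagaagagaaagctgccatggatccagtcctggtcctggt
The TATA box letters stand in front of Slc26a3 and Cyp2c55 and in 13.6% of the 32851 promoters of the table. The CDX-type letters, those of a family of intestinal homeobox factors, are found in front of Aqp8 and Cyp2c55 and in 10.9% of all promoters. An HNF4-type motif, CAAAGTNCA, was found in none of the 3 windows and in 1.41% of all. The motifs were chosen after other spellings had been tried, and a match describes the letters only.

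As chosen by the rule, colonocytes had 44212 CPM of Car1, 4443 CPM of Cyp2c55, 715 CPM of Slc26a3 and 552 CPM of Aqp8, against 7546, 568, 103 and 7.22 CPM in dividing cells and 1299, 133, 21.7 and 6.03 CPM in goblet cells. Car1 was found in all 301 cells, with a median of 4.50% of a cell's UMIs and a range from 0.797% to 16.7%, so the share that defined the cells was nearly all Car1. Cyp2c55 was found in 299 and Slc26a3 in 270 of the cells. Aqp8 had a UMI in only 153 of 301, with 16.3 CPM in the median cell and 11317 CPM in the highest. In leukocytes of the same library, with a median depth of 3423.5 UMIs, 91.1% had a Car1 UMI and 2.06% an Aqp8 UMI, at 502 and 3.67 CPM. The summed marker share had a median of 5.05% and ran from the limit of 1% to 17.6%. The 23 members just inside the limit (1% to 1.5%) had 10614 CPM of Car1 and 104 CPM of Krt20, a keratin of surface cells, and the 29 barcodes just outside it (0.5% to 1%) had 6639 and 19.3 CPM.

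**Figure D1:**
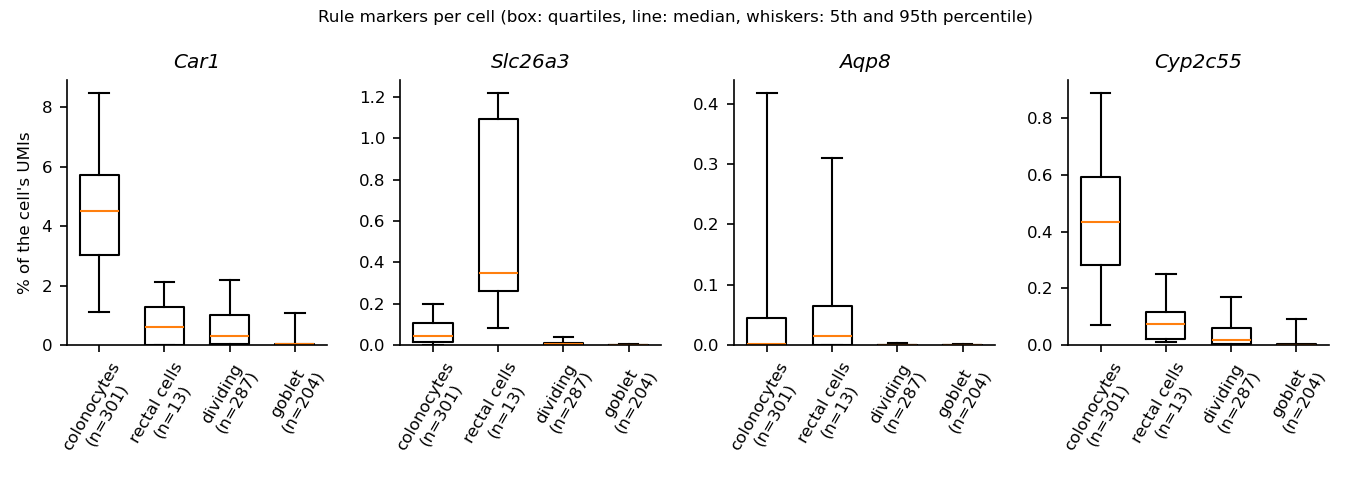
Share of each cell's UMIs (vertical axes, %) in the 4 genes of the rule, for 301 colonocytes, 13 rectal cells that met the same rule, 287 dividing and 204 goblet cells of the colon. Boxes span the quartiles, lines are medians and whiskers reach the 5th and 95th percentiles. The median colonocyte had 4.50% of its UMIs in Car1, against 0.603% in the rectal cells, while Slc26a3 was higher in the rectal cells, at a median of 0.350%, against 0.0425% in colonocytes.

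Beside dividing cells of the colon, colonocytes had higher levels of many genes of the apical surface. A gene was counted as higher or lower when its CPM differed at least 4-fold and the higher class had at least 50 UMIs, a rule of size and not a test. By this rule 261 of 10398 genes were higher in colonocytes, 2.51%, and 971 were lower, 9.34%. The rule that defined the classes used this contrast, so these counts are a description. Of 16 genes of the surface end of the colonic crypt, 11 were higher and none lower, with a median log2 fold of 2.89, where the median of all tested genes was -0.40. The list of crypt base and growth genes holds Mki67 and Top2a, which separated the classes, and many of its members reached 50 UMIs in the dividing cells only, so its count is not read. Sox9, a factor of crypt cells, had 13.5 CPM in colonocytes and 116 CPM in dividing cells.

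Krt20 reached 795 CPM in colonocytes, against 46.1 CPM in dividing cells, a ratio of 17.2 (counting interval 15.9 to 18.7). Lypd8, a secreted protein that keeps flagellated bacteria off the epithelium, had 9546 CPM in colonocytes and 1196 CPM in dividing cells. It was found in all 301 colonocytes. The membrane mucin Muc3 had 1149 CPM in colonocytes, against 132 CPM in dividing cells, and Saa1, an acute-phase protein of epithelium, had 273 against 10.8 CPM, with a Saa1 UMI in 149 of 301 colonocytes. Mxd1, a repressor that opposes Myc, stood at 127 CPM in colonocytes and 18.3 CPM in dividing cells. Myc itself, a driver of growth, stood at 5.86 CPM in colonocytes and 36.4 CPM in dividing cells.

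Among 23 tested genes of sodium, chloride and proton transport other than Slc26a3, 4 were higher in colonocytes than in dividing cells and 3 lower. Over all tested genes the shares were 2.51% higher and 9.34% lower, so the 3 lower ones are not read as a trait of the list. The apical sodium and proton exchangers were among the higher ones, with Slc9a3 at 71.5 CPM in colonocytes, against 6.21 CPM in dividing cells, and Slc9a2 at 156 against 31.0 CPM. Slc9a2 had a UMI in 257 and Slc9a3 in 175 of the 301 colonocytes. The lower ones were Slc12a2, the basolateral loader of chloride, and the potassium channel parts Kcne3 and Kcnn4. Slc12a2 had 50.6 CPM in colonocytes and 430 CPM in dividing cells. Kcne3 and Kcnn4 had 43.4 and 6.17 CPM in colonocytes, against 225 and 63.9 CPM in dividing cells. Cftr, the apical chloride channel, was lower by less than the 4-fold limit, at 53.4 CPM in colonocytes and 161 CPM in dividing cells.

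Of the 22 tested genes of short-chain fatty acid uptake and oxidation, none passed the 4-fold rule between colonocytes and dividing cells, and 18 lay above 0, at a median log2 fold of 0.64. Slc16a1, a monocarboxylate transporter that carries butyrate, had 417 CPM in colonocytes and 162 CPM in dividing cells. The enzymes of drug and toxin metabolism held more that passed. Of 43 tested genes on that list other than Cyp2c55, 14 were higher in colonocytes and none lower, at a median of 0.79. The carboxylesterase Ces2c had 728 CPM in colonocytes, against 64.5 CPM in dividing cells, and the cytochrome Cyp4b1 had 156 against 12.6 CPM. Among the 10 genes with the widest ratio, Cyp1a1, a cytochrome induced through the aryl hydrocarbon receptor, had UMIs in 17 colonocytes only, 65.3% of them in 3 cells, and all 101 UMIs of Mucl2 came from 1 cell.

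Set against goblet cells, the mucus-secreting neighbours, colonocytes had higher levels of many metabolic enzymes. By the same rule 562 of 9103 genes were higher in colonocytes, 6.17%, and 638 lower, 7.01%; goblet genes chose these classes, so the contrast is a description. Of 44 tested genes of drug and toxin metabolism other than Cyp2c55, 31 were higher in colonocytes, at a median log2 fold of 3.09, where the median of all genes was -0.12. Mgst3, a membrane glutathione transferase, had 1955 CPM in colonocytes and 202 CPM in goblet cells. Of 22 genes of fatty acid uptake and oxidation, 5 were higher and none lower, at a median of 1.37, among them Slc5a8, a sodium-coupled carrier of short-chain fatty acids, at 124 CPM in colonocytes, against 11.5 CPM in goblet cells, and Slc16a1, at 417 against 54.5 CPM.

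Ion transport divided between these 2 classes of mature cells, with 5 of 26 tested genes other than Slc26a3 higher in colonocytes and 9 lower. Slc9a2 had 156 CPM in colonocytes and 4.42 CPM in goblet cells. Scnn1a, a subunit of the epithelial sodium channel, had 6.69 CPM in colonocytes, against 85.5 CPM in goblet cells. Hsd11b2, the enzyme that keeps glucocorticoids off the aldosterone receptor, had 123 against 824 CPM, and Fxyd3, a modulator of the sodium pump, 29.8 against 933 CPM. The fatty acid receptors Ffar2 and Ffar4 had 2.47 and 4.53 CPM in colonocytes and 117 and 129 CPM in goblet cells. Guca2a, which encodes guanylin, a peptide that stimulates fluid secretion, was close in the pair, at 2641 CPM in colonocytes and 2251 CPM in goblet cells.

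Within the 301 colonocytes the marker share ordered the cells by the rule genes, and other genes were read along that order. The cells were ranked by that share and divided into 4 groups of 75 or 76, which are ranges and not types, with median shares of 1.94%, 4.33%, 5.83% and 7.79%. The groups had median UMIs of 28497, 33041, 32982 and 32065, and the median mitochondrial share was 13.6%, 15.4%, 16.2% and 15.3%. The 9 cells with the highest shares, 13.1% to 17.6%, were shallow, with 535 to 2286 UMIs and under 1000 genes each. Between the top and the bottom group 87 of 5287 genes were at least 4-fold higher, 1.65%, and 264 were lower, 4.99%, without the 4 rule genes. With at least 1000 genes per cell, which leaves out those 9, the counts were 88 and 263. The median share of UMIs in ribosomal protein genes went down along the order, at 16.4%, 10.1%, 7.2% and 4.89%.

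Several genes of the surface end were higher at higher marker shares. Krt20 had 209, 552, 897 and 1597 CPM from the lowest to the highest group, and Lypd8 had 4593, 7530, 11100.4 and 15343.5 CPM. Tmigd1, an adhesion molecule of the brush border, had 72.0, 209, 409 and 738 CPM. Of 16 surface-end genes tested, 6 were at least 4-fold higher in the top group and none lower, 10 passed in neither direction and 2 lay below 0, at a median log2 fold of 1.74, beside -0.26 over all genes. Of the 23 tested brush border genes 22 lay above 0, although only 2 passed the rule. Clca4a, a calcium-activated chloride channel regulator, stayed at 43.6, 32.5 and 75.6 CPM in the lower 3 groups and reached 422 CPM in the highest.

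Several genes of chloride secretion and growth were higher in the bottom group. Slc12a2 had 182, 26.9, 7.34 and 5.35 CPM from the lowest to the highest group, Cftr had 132, 52.7, 26.8 and 8.75 CPM, and Kcne3 had 116, 40.7, 18.4 and 5.83 CPM. Ccnd1, the cyclin of growth entry, had 142, 36.8, 12.5 and 3.40 CPM, and Cd44, a hyaluronan receptor of the crypt base, had 58.7, 4.95, 0.367 and 0.486 CPM. Only 7 of the 30 listed genes of crypt base and growth were tested, most through their UMIs in the bottom group, so their count is not read. Pigr, the receptor that carries IgA into the lumen, had 2793, 1924, 1318 and 501 CPM, and Sult1a1, a sulfotransferase, had 854, 587, 343 and 92.8 CPM. The zinc-binding metallothionein Mt1 went down in the same order, at 673, 360, 181 and 69.5 CPM.

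Markers of other cell types also differed between the groups, several of them through a few cells. Of 7 enteroendocrine markers 5 were tested, through their UMIs in the bottom group only. Their lower level in the top group, at a median log2 fold of -7.58, was thus set by the filter. Gcg, the proglucagon gene, had 1322, 519.7, 3.67 and 3.40 CPM, nearly all of it from 3 cells. Of 13 goblet markers 6 were tested and 4 were lower, at a median of -2.64, with the mucin Muc2 at 241, 320.1, 30.8 and 34.0 CPM. Of 7 stromal and endothelial markers 2 were tested, through their UMIs in the top group only, so their direction was set by the filter as well. Among them was the collagen Col3a1, of which 3 cells held 98.3% of the UMIs. Without the 12 colonocytes that had at least 5 UMIs of another type's markers, 87 genes were higher and 225 lower between the top and the bottom group.

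A few genes peaked between the ends, among them 2 of the surface-end list. Slc37a2, a sugar phosphate exchanger, had 222, 751, 461 and 97.2 CPM, and the phosphate transporter Slc20a1 had 240, 539, 387 and 102 CPM. Slc16a1 was highest in the third group, at 258, 451, 530 and 383 CPM. The 20 genes of oxidative phosphorylation had a median log2 fold of -0.02 between the top and the bottom group, with none past the rule.

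**Figure D2:**
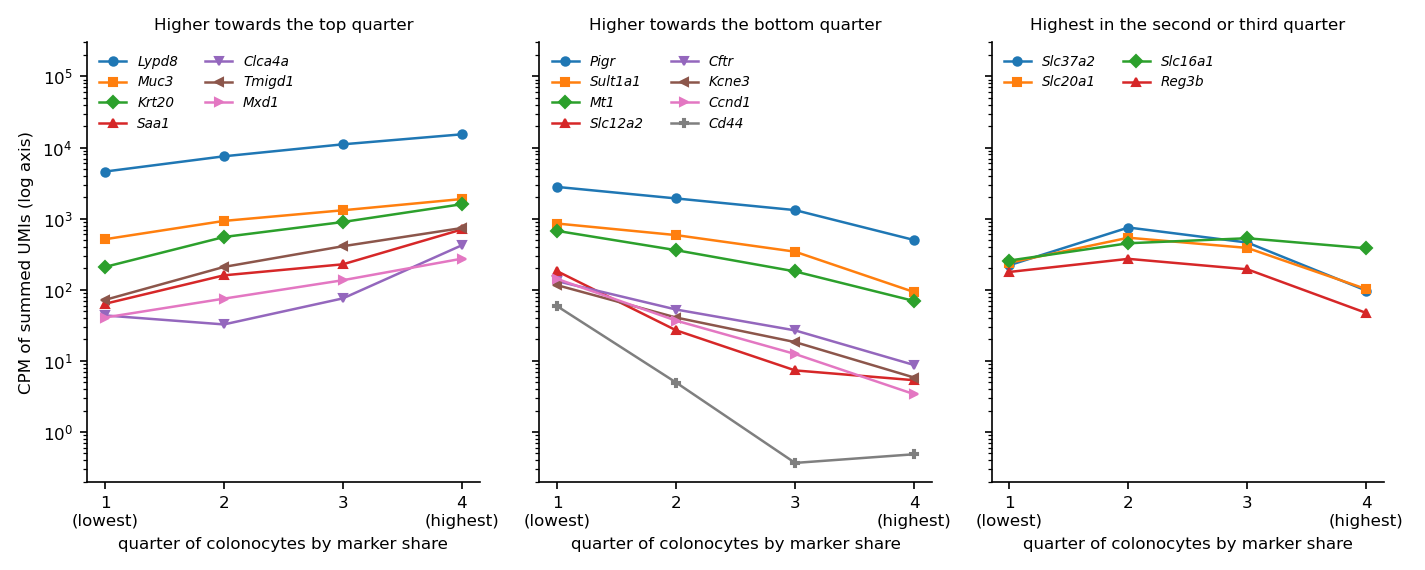
CPM of summed UMIs (vertical axis, log scale) in colonocytes divided into 4 groups by marker share, from the lowest to the highest, for genes that went up, went down or peaked between the ends. Krt20 had 209 CPM in the lowest and 1597 CPM in the highest group, whereas Slc12a2 had 182 and 5.35 CPM, and Slc37a2 was highest in the second group, at 751 CPM.

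The water channels divided the colonocytes further. This grouping was made after the values had been seen, and it uses Aqp8, a rule gene, so it is a description. Aqp4 alone had a UMI in 49 cells, Aqp8 alone in 144, both in 9 and neither in 99. Aqp4, a water channel that in other epithelia lies in the basolateral membrane, had 66.5 CPM over all colonocytes, 59.6 CPM in dividing cells and 6.03 CPM in goblet cells. The median depths of the Aqp4-only and Aqp8-only cells were 33877 and 32031.5 UMIs, and their median mitochondrial shares were 13.2% and 16.5%. Their median marker shares were 4.11% and 6.13%.

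Cells with Aqp4 alone had 181 CPM of Slc26a3, against 1118 CPM in cells with Aqp8 alone, a ratio of 0.162 (counting interval 0.144 to 0.181). Saa1 had 36.6 CPM in Aqp4-only cells and 504 CPM in Aqp8-only cells, and Clca4a had 7.22 against 244 CPM. Other genes went the other way. Gsta1, a glutathione transferase, had 293 CPM in Aqp4-only cells and 66.8 CPM in Aqp8-only cells, Mt1 had 606 against 134 CPM, and Slc5a8 had 216 against 81.0 CPM.

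Values by marker share describe the same cells further; Slc26a3 and Aqp8 are both part of that share. In Aqp4-only cells Slc26a3 stood at 134, 275, 235 and 66.1 CPM from the lowest to the highest group, against 569, 964, 1209 and 1275 CPM in Aqp8-only cells. In the highest group the pair had nearly the same Krt20, at 1591 CPM in 7 Aqp4-only cells and 1644 CPM in 58 Aqp8-only cells. There Gsta1 had 614 CPM in Aqp4-only cells and 75.6 CPM in Aqp8-only cells, and the 9 cells with neither channel had 734 CPM. Over all 99 cells with neither channel, Gsta1, Mt1, Saa1 and Clca4a stood at 202, 437, 28.7 and 11.8 CPM, nearer to the Aqp4-only than to the Aqp8-only cells, so these levels are not particular to cells with Aqp4. Aqp4-only cells were 20, 13, 9 and 7 of the cells in the 4 groups and Aqp8-only cells 15, 24, 47 and 58. Where along the colon the cells came from is not given in the sources used here.

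**Figure D3:**
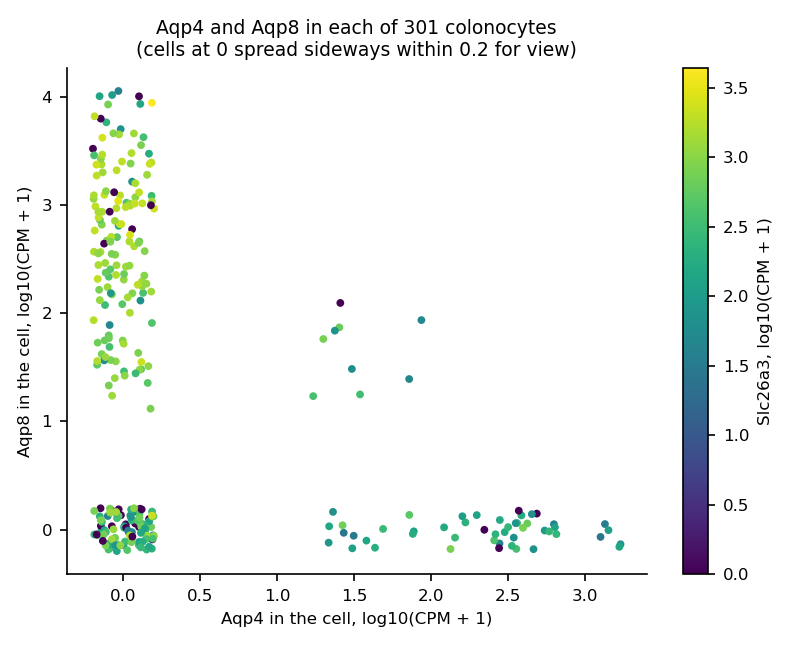
Aqp8 (vertical axis) against Aqp4 (horizontal axis) in each of 301 colonocytes, as log10(CPM + 1) per cell, with the colour giving Slc26a3 on the same scale; cells at 0 were spread around 0 so that they can be seen. Most cells lie along one axis or the other: 49 had Aqp4 only, 144 Aqp8 only and 9 both.

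Enterocytes of the small intestine are the absorptive cells of the upstream segments, which take up sugars, peptides and fats. A gene was counted here when the colonocyte value lay at least 4-fold above the highest or below the lowest of the 3 segments. By this rule 575 of 9004 genes were higher in colonocytes, 6.39%, and 428 lower, 4.75%. Of the 27 small intestinal absorption genes, 24 were lower and none higher, at a median log2 fold of -5.39, beside 0.00 over all genes. That list holds Apoa1, Apoa4, Sis and Anpep, the 4 genes that chose the enterocytes, so their direction was set by the rule. Some others, with few or no UMIs in colonocytes, were tested through the enterocytes only and could only be lower. The count and the median include all of these, so they are a description and not a test of the list. Apoa1, the carrier protein of high-density lipoprotein, had 0.514 CPM in colonocytes, against 11512 to 16499.7 CPM in the 3 segments. The disaccharidase Sis had 3.60 CPM in colonocytes, against 2678 to 3523 CPM, and lactase (Lct) had no UMI in any of the 301 colonocytes, which allows a share of up to 0.997% of cells with a UMI.

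Part of the absorptive set was nonetheless present in colonocytes. Fabp2, a carrier of long-chain fatty acids, had 3249 CPM in colonocytes, with a UMI in 296 of 301 cells, against 21569.8 to 27094 CPM in the small intestine. Slc10a2, the sodium-coupled bile acid transporter, had 97.9 CPM in colonocytes, with a UMI in 148 cells, against 3.03 CPM in duodenal, 1.23 CPM in jejunal and 302 CPM in ileal enterocytes. Rbp2, a retinol carrier, had 86.3 CPM in colonocytes and 205 CPM in their top group by marker share, against 1039 to 21442 CPM in the small intestine.

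Some exchangers of chloride and protons differed and others did not pass the rule. Slc26a6, another anion exchanger, had 0.514 CPM in colonocytes, against 283 to 348 CPM in the 3 small intestinal segments, whereas Slc26a3, a gene that chose the colonocytes, had 715 CPM in colonocytes, against 160 to 201 CPM, within the 4-fold limit. Pdzk1, a scaffold of apical transporters, had no UMI in colonocytes and 173 to 349 CPM in the small intestine. Slc9a3 was alike, at 71.5 CPM in colonocytes and 33.7 to 92.3 CPM in enterocytes. Car2 had 1080.3 CPM in colonocytes, against 0.283 to 24.2 CPM, and Hsd11b2 had 123 against 1.21 to 1.42 CPM. Of 26 tested genes of this list other than Slc26a3, 7 were higher in colonocytes and 3 lower.

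Several genes of metabolism and transport had far higher levels in colonocytes than in any of the 3 enterocyte classes. Hao2, a peroxisomal hydroxyacid oxidase, had 528 CPM in colonocytes and at most 0.151 CPM, in the duodenum, among the enterocyte classes. Sult1a1 had 472 CPM in colonocytes and 0.142 CPM in the ileum, from 1 UMI there. Slc6a14, an apical amino acid carrier, had 261 CPM in colonocytes, in 231 of 301 cells, and no UMI in any of the 3 enterocyte classes, which makes it at least 614-fold higher. Slc16a1 had 417 CPM in colonocytes, against 31.0 to 44.6 CPM. Of the 24 tested genes of fatty acid uptake and oxidation, 2 were higher in colonocytes, 2 were lower and 20 passed in neither direction. Of 46 tested genes of drug and toxin metabolism other than Cyp2c55, 5 were higher and 5 lower, at a median log2 fold of -0.09. Over all genes 6.39% were higher and 4.75% lower.

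Transcription factors that mark position along the gut differed as well. Of 24 listed HOX genes, which pattern the body axis, 6 were tested. These reached 50 UMIs through the colonocytes alone, so being higher there was set by the filter, and the other 18 were not tested. The list is not limited to posterior genes and also holds Hoxa5, Hoxa7 and Hoxb6. Hoxb9 had 62.9 CPM in colonocytes, with a UMI in 188 cells, against 0 to 2.41 CPM in enterocytes. Gata4, a factor of the proximal small intestine, had 0.103 CPM in colonocytes and 27.9 to 55.0 CPM in enterocytes, and Maf had 17.4 against 247 to 749 CPM. Pparg, a nuclear receptor of lipid metabolism, had 140 CPM in colonocytes, against 1.98 to 11.6 CPM.

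**Figure D4:**
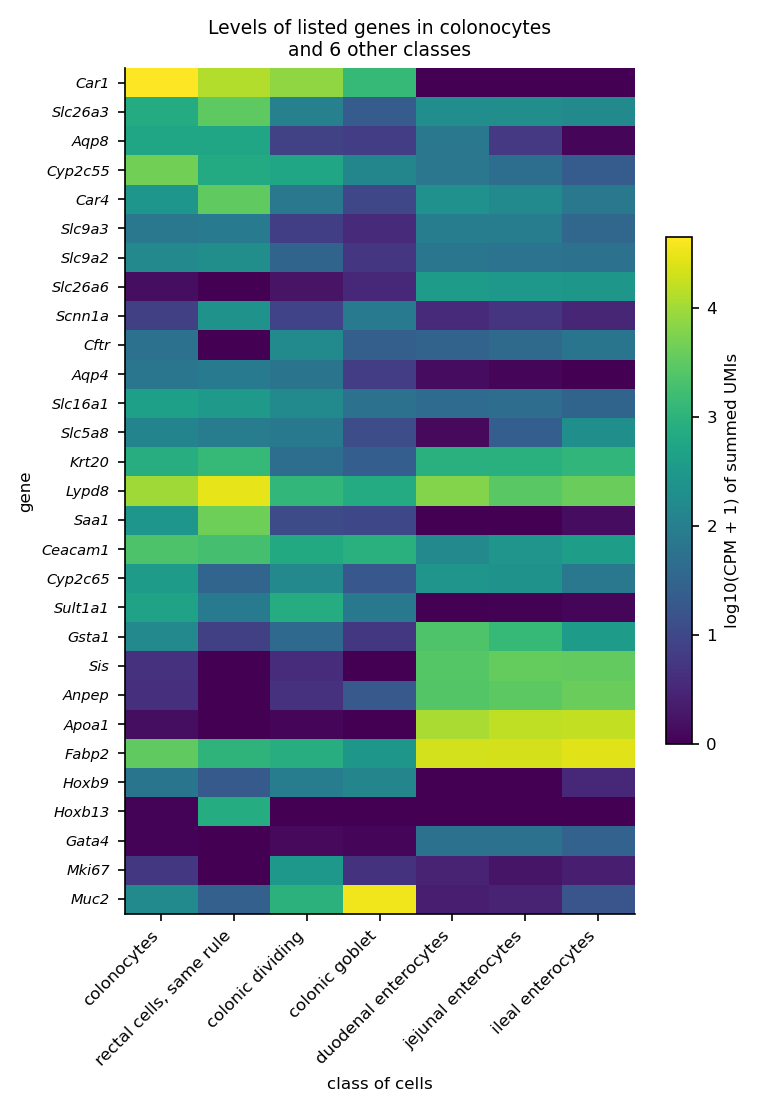
Levels of listed genes (rows) as log10(CPM + 1) of summed UMIs in colonocytes and 6 other classes of cells (columns), with lighter colours for higher levels. Car1, Sult1a1 and Slc16a1 are lighter in colonocytes than in small intestinal enterocytes, Sis, Anpep and Apoa1 are the reverse, and Hoxb13 is light in the rectal cells.

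The rule was next applied to the rectum, the end segment of the large intestine. Only 13 of 811 rectal epithelial barcodes met it, 1.60% (0.856% to 2.73%), so the rectal values rest on few cells, and how far the rule suits that segment was not tested. Car1 had a UMI in only 7 of those 13 cells, and the highest cell held 41.7% of its UMIs. Over the class Car1 was 44212 CPM in the colon (44080.4 to 44345) and 12885 CPM in the rectum (12326 to 13463). Slc26a3 had 715 CPM in colonocytes of the colon, against 3105 CPM in the rectal cells (2834 to 3395), and Aqp8 was close, at 552 CPM in colonocytes and 549 CPM in the rectal cells. The 6 rectal cells without a Car1 UMI could meet the rule only through the other 3 genes, so the rectal levels of these genes follow from the rule and are no comparison of the segments. Of 8633 genes, 131 were at least 4-fold higher in the colon, 1.52%, and 52 lower, 0.602%. With a scaling by the median ratio of all genes, 205 were higher and 42 lower. The median share of ribosomal protein UMIs was 8.40% in colonocytes and 1.92% in the rectal cells, and the median mitochondrial share was 15.3% in colonocytes and 7.14% in the rectal cells.

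All 22 tested genes of fatty acid uptake and oxidation lay above 0 in this comparison, at a median log2 fold of 1.02, beside -0.45 over all genes, though only 2 passed the rule. Genes could enter this comparison through their UMIs in colonocytes alone, since the rectal cells held far fewer UMIs. For this list too, a difference between the segments cannot be told apart from which rectal cells the rule took. The retinal dehydrogenase Aldh1a1 had 461 CPM in colonocytes, against 32.3 CPM in the rectal cells, and the carboxylesterase Ces1g had 329 CPM in the colon and no UMI in the rectal cells. Fgfbp1, a carrier of fibroblast growth factors, had 449 CPM in colonocytes and 38.7 CPM in the rectal cells.

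Hoxb13, the most posterior gene of its cluster, had 1 UMI in 1 of 301 colonocytes, against 736 CPM in the rectal cells (607 to 884), with a UMI in 12 of 13. Fxyd4, a regulator of the sodium pump, had 0.309 CPM in colonocytes and 1285 CPM in the rectal cells. Atp12a, the catalytic part of the colonic proton and potassium pump, had no UMI in 301 colonocytes and 671 CPM in the rectal cells, where 11 of 13 had one. The membrane-bound carbonic anhydrase Car4 had 275 CPM in colonocytes, against 3299 CPM in the rectal cells, and Saa1 had 273 against 4248 CPM. Among the rectal cells the highest cell of each gene held 38.6% of Car4 and 32.4% of Saa1 UMIs. Of 16 surface-end genes, 1 was higher in colonocytes and 5 were lower, at a median log2 fold of -1.59. Over all tested genes 1.52% were higher and 0.602% lower, at a median of -0.45. For Car4, Saa1 and this list, a difference between the segments cannot be told apart from which rectal cells the rule took. Scnn1a had 6.69 CPM in colonocytes and 245 CPM in the rectal cells, from 38 UMIs there, under the 50 that the rule asked for. In rectal leukocytes Hoxb13, Fxyd4 and Atp12a stood at 3.48, 2.32 and 0.696 CPM.

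**Figure D5:**
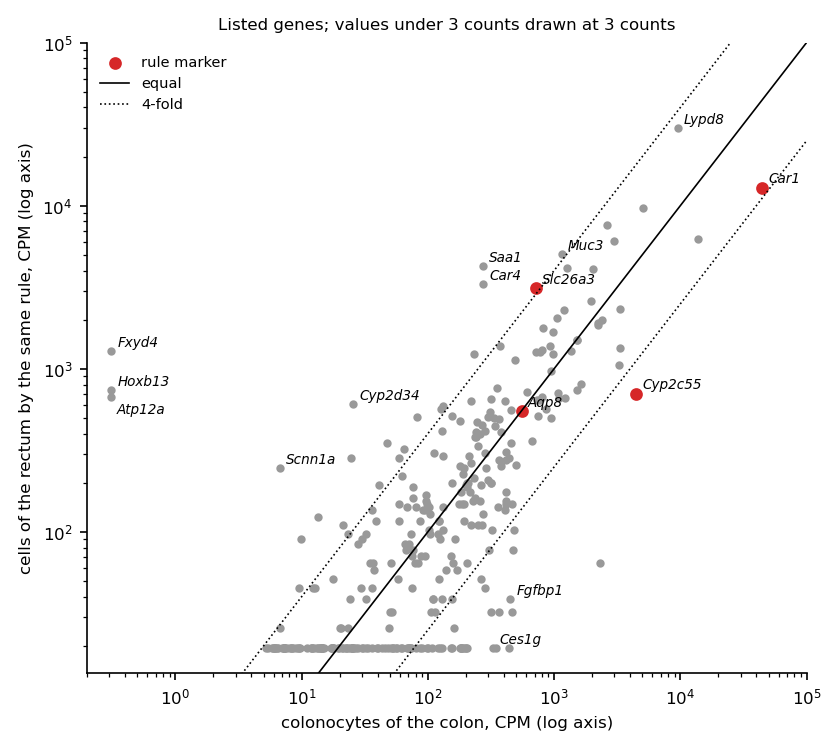
CPM of listed genes in colonocytes of the colon (horizontal axis) and in the 13 rectal cells that met the same rule (vertical axis), both on log scales, with lines at equality and at 4-fold; values under 3 counts are drawn at 3 counts. Fgfbp1 lies below the lines, at 449 CPM in colonocytes and 38.7 CPM in the rectal cells, and Fxyd4, Hoxb13 and Atp12a lie far above them.

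Transcripts of other cell types were present in the colonocytes, much of them in a few cells. The 7 enteroendocrine markers summed to 858 CPM, but 7 cells with at least 5 such UMIs gave nearly all of it, and the sum was 7.45 CPM in the other cells. Those 7 cells had a median of 44817 UMIs, against 31776 UMIs in the others. Gcg had 440 CPM over all colonocytes and 97.7% of its UMIs in 3 cells, and neurotensin (Nts) had 99.8% in 3 cells. Tuft markers summed to 6.28 CPM, B and plasma cell markers other than antibody genes to 6.58 CPM, macrophage markers to 2.88 CPM, T cell markers to 0.206 CPM, with 3 of 4 at 0, and stromal and endothelial markers to 16.7 CPM, with 2 of 7 at 0. Of the antibody light chain Igkc, at 806 CPM, 85.3% of UMIs came from 1 cell, but 270 of 301 cells had a UMI, at 111 CPM in the median cell. Igha had a UMI in 209 cells and Jchain, the joining chain of IgA, in 122. Among goblet genes, Muc2 had a UMI in 183 colonocytes and Retnlb, a goblet cell peptide, in 165, beside 35.8% and 34.2% of leukocytes of the same library. In all, 12 colonocytes had at least 5 UMIs of another type's markers, and whether these barcodes hold more than 1 cell was not tested. The ileal bile acid binding protein Fabp6, at 191 CPM, had 95.2% of its UMIs in 3 of the 14 cells that had any, unlike Slc10a2, of which the 3 highest cells held 10.1%.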

How the data were processed

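Per the labels, sorted cells negative for propidium iodide were captured on the 10x Genomics platform. The deposited matrices hold whole-number UMI counts per gene and barcode for 32285 genes, not normalized. Cell Ranger 4.0.0, Seurat and the build mm10 are listed in the submitters' processing notes, and cellranger 7.2.0 stands in the matrices, per the file headers. How reads were assigned to strands is not given in the sources used here.

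Counts were summed per class and library and scaled to CPM with numpy 2.4.6, scipy 1.17.1 and pandas 2.3.3. Levels and ratios carry exact Poisson and conditional binomial 95% intervals, and shares carry Clopper-Pearson ones, which cover counting error only. Counts under 3 were set to a floor of 3 counts in ratios. A count of 0 was taken as 3 counts in limits on shares. Genes named are the 4 markers, members of 27 lists (477 of 480 symbols found) and the 10 widest ratios per direction and comparison, without mitochondrial, antibody and T cell receptor segment genes and unnamed models. Some genes that this rule takes are not reported here. The cells, lists and genes were chosen with earlier results of these data known. Doublets were kept, and scored with Scrublet in scanpy 1.11.5 for an alternative. The calculation was tested on simulated counts.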

Additional observations from a re-analysis of the deposited data

Results flagged for a closer look

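A further 244 colonic barcodes met every part of the colonocyte rule except the mitochondrial limit, and they enter no comparison above. Their median depth was 13316.5 UMIs and their median mitochondrial share 34.5%. By the same reading 5 rectal barcodes were found, and 0 in the duodenum, jejunum and ileum, where 1020, 1006 and 810 barcodes exceeded the limit. Relative to all UMIs outside mitochondrial genes, these barcodes had 1201 CPM of Saa1, against 323 CPM in the colonocytes, a ratio of 3.72. Muc3 stood at 2661 against 1358 CPM, Aqp8 at 1156 against 652 CPM, and Car1 at 41717 against 52252 CPM. They were set apart because they carry a signal of colonocytes in barcodes outside the main measurement.

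The antibody genes Igkc and Igha lay in opposite directions, by at least 4-fold, when colonocytes were set beside dividing cells in the colon and in the rectum. Igkc had 806 CPM in colonocytes and 169 CPM in dividing cells of the colon, against 671 CPM in the 13 rectal cells and 9560 CPM in dividing cells of the rectum, so that the log2 ratios differed by 6.08. Igha had 259 and 57.3 CPM in the colon, against 400 and 4565 CPM in the rectum, a difference of 5.69. The difference was not tested. In the colon 85.3% of Igkc and 83.0% of Igha UMIs of the colonocytes came from 1 cell. Without the highest cell of each gene, an alternative chosen after seeing the data, Igkc had 119 CPM and Igha 44.1 CPM in colonocytes, against 169 and 57.3 CPM in dividing cells, log2 ratios of -0.50 and -0.38, so the direction in the colon turned and was then that of the rectum.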

How the results depend on the processing

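With every deposited barcode the rule took 546 colonocytes, and 50 genes were then higher and 138 lower in the top against the bottom group by marker share. With at most 10% mitochondrial UMIs only 25 colonocytes remained, with 31 genes higher and 139 lower than in dividing cells, 99 and 343 against goblet cells, 82 and 156 against enterocytes, and 3 and 28 between the top and bottom group. There the log2 folds of Clca3b and Ccnd1 came out at 1.502 each; both had 0 UMIs in the top group, 13 in the bottom group, so the sign comes from the floor of 3 counts and is no measured reversal. A marker share of at least 2% left 2 rectal cells, with 29 genes higher and 14 lower in the colon, and gave 34 and 144 between the marker share groups. A mean over cells gave 219 genes higher than in the rectum, and scaling by the median of ratios gave 205; it also moved the median log2 fold of all genes to -0.19 there (-0.45 by CPM), -0.15 against dividing cells (-0.40) and 0.06 against goblet cells (-0.12). A minimum of 10 UMIs gave 1055 genes lower than in goblet cells, 173 lower than in the rectum, 947 higher than in enterocytes, and 165 higher and 806 lower between the marker share groups. Another alternative left out genes whose level in leukocytes of the same library exceeded 10% of that in the higher class. It gave 129 lower than in dividing cells, 358 and 264 against goblet cells, and 50 and 34 against the rectum. It also gave 216 and 254 against enterocytes, and 66 lower in the top group. Leaving out the 12 colonocytes with markers of another cell type, an alternative chosen after seeing the data, took Nts to -4.14 against dividing cells, -0.89 against goblet cells and -5.48 against the rectum. It took Gcg to -0.70 against goblet cells, -2.90 against the rectum and 1.28 between the marker share groups, Pyy to -0.53 against goblet cells and Chgb to 0.79 between the marker share groups. The rectal cells had 0 UMIs of Gcg and Nts, so both rectal values come from the floor, and the others rest on few UMIs. The cause was not tested for the mean over cells or for the scaling. No paired analysis was possible because each segment has 1 library. With 13 rectal cells, levels under 19.4 CPM could not be read in the rectum.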
